A study of Homo sapiens with 16 samples.

Results

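A set of 10 genes for secreted growth factors was followed through ribosome-protected fragments and total RNA of a breast cancer cell line in which the pool of isoleucine tRNAs had been altered. They were PDGFC, PDGFA, MDK, VEGFA, VEGFC, HBEGF, AREG, EREG, TGFA and TGFB1, out of 26485 genes listed in the count files. The genes were chosen by symbol. PDGFC and MDK were picked because their ribosome-protected fragments (footprints, stretches of message protected by a translating ribosome) differed between conditions, and the others were set beside them. Footprint values of the 10 genes are therefore a description, and p-values are given for total RNA, which was not used to pick PDGFC and MDK. The factors and tests were still chosen with earlier results of these data known, so the p-values are not independent of those results.

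MDA-MB-231 cells were used, a line of human breast carcinoma without hormone receptors, and the labels give their source as a xenograft cell line. Repression was by CRISPR interference, where a guide RNA directs a transcriptional repressor to its target. The double modulation combined a guide against tRNA-Ile-GAU with a construct that overexpresses tRNA-Ile-UAU. The knockdown had the tRNA-Ile-GAU guide with a control construct, the overexpression had a guide against eGFP with the tRNA-Ile-UAU construct, and the control had the eGFP guide with the control construct. Each of these 4 conditions gave 2 libraries per assay, 16 libraries in all. The stated question of the study is ribosome occupancy of isoleucine-rich transcripts under this change. The guide and the cells that received it coincide in the design, so a difference by guide cannot be told apart from a difference between cell populations. The libraries of a condition are numbered but not described as separate cultures, so p-values reflect only how far these libraries vary, and that variation may be technical. In bulk libraries, fewer cells that make a factor and less of its RNA per cell cannot be told apart.

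Secreted growth factors are made as precursors on the rough endoplasmic reticulum, pass through the secretory pathway and act on receptors of the same or neighbouring cells. PDGFA and PDGFC are ligands of PDGF receptors, and PDGFC must be cleaved outside the cell before it binds. MDK encodes midkine, a heparin-binding factor. VEGFA and VEGFC act on endothelial cells of blood and lymph vessels. HBEGF, AREG, EREG and TGFA encode ligands of the EGF receptor that are shed from membrane-bound precursors. TGFB1 encodes transforming growth factor beta 1, which is secreted in a latent complex.

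Footprint libraries held 639320 to 938909 counts on genes with the tRNA-Ile-GAU guide and 358340 to 607919 with the eGFP guide. Total RNA libraries held 2743415 to 5446599 and 2512247 to 3866467 counts. Levels are given as counts per 1e6 counts on genes (CPM). The mesenchymal markers VIM, CD44 and AXL were abundant in every library, and ESR1, which this line lacks, had at most 1 count. Of 3 endothelial markers, CDH5 had 0 counts in all 16 libraries and VWF at most 1 in any, and PECAM1 was at 3.78 to 10.2 CPM of total RNA. Of 5 fibroblast markers, DCN had 0 counts in all 16 and LUM at most 1 in any, COL1A2 was at 0.398 to 1.46 CPM of total RNA, COL1A1 at 2.79 to 10.6 and PDGFRB above 0 in every library and at most 3.99. The 4 immune markers had at most 1.82 CPM of total RNA, CD3E had 0 counts in all 16 libraries, and CD14 reached 16.7 CPM in footprints. The part of other cells in the results was not tested. The total RNA libraries of the double modulation stood apart from each other. Of the genes tested, 10.9% differed over 2-fold between them, against 1.89 to 2.92% between the replicates of the other 3 conditions. In footprints that share was 2.05% in the double modulation and 1.41 to 4.99% in the others.

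PDGFC footprints were higher in all 3 modified conditions than in control, and PDGFC total RNA was nearly level. Footprints reached 68.2 and 59.4 CPM in the double modulation, 113 and 81.0 CPM in the knockdown and 78.1 and 84.0 CPM in the overexpression, against 42.8 and 47.9 CPM in control. All 6 modified libraries lay above both control libraries. How many of all genes have 1 condition apart from the others was not counted, for PDGFC or the factors below. Such separations are therefore descriptions only. In order, the knockdown averaged 97.0 ± 22.7 CPM, the overexpression 81.1 ± 4.14, the double modulation 63.8 ± 6.17 and the control 45.3 ± 3.6 (SD, n = 2 each). Values of the knockdown and the overexpression overlapped, and the neighbours further down the order did not. The fold over control was 1.40 in the double modulation, 2.12 in the knockdown and 1.79 in the overexpression. On the log2 scale these were 0.49 ± 0.25, 1.09 ± 0.23 and 0.84 ± 0.26 (SE).

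The double modulation, which combines both changes, thus had lower PDGFC footprints than either change alone. Its counts were 64 and 38, against 96 and 67 (knockdown), 28 and 49 (overexpression) and 26 and 29 (control). Its exact Poisson 95% intervals, which cover counting error only, were 52.5 to 87 and 42.1 to 81.6 CPM. They overlapped those of the overexpression (from 51.9 and 62.1) and control (up to 62.7 and 68.7). The knockdown lay above them in replicate 1 (from 91.6) but not in replicate 2 (from 62.7). Its place between overexpression and control is therefore not settled. The interaction, that is the effect of the construct with the tRNA-Ile-GAU guide minus its effect with the eGFP guide, was -1.44 ± 0.33 on the log2 scale. Only 5 of 8143 genes passed in this contrast at an adjusted p under 0.05 by edgeR's quasi-likelihood test (0.0614%), and PDGFC was 1 of them. PDGFC was chosen from these libraries, so nothing is read from that call. Without single libraries the interaction ran from -1.67 to -1.18, and it did not pass in 6 of those 8 fits.

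PDGFC total RNA measured 152 and 174 CPM in the double modulation, 163 and 169 in the knockdown and 151 and 171 in the overexpression, against 171 and 179 in control. All 8 libraries lay between 151 and 179 CPM, with control at the upper end. The log2 fold change was -0.11 ± 0.12 in the double modulation, -0.06 ± 0.12 in the knockdown and -0.10 ± 0.12 in the overexpression (SE, n = 2 per group; edgeR adjusted p = 0.888, 0.998 and 0.999). The ratio of mean footprint CPM to mean total RNA CPM was 0.392 in the double modulation, 0.583 in the knockdown and 0.503 in the overexpression, against 0.259 in control. Tested as translational efficiency (the footprint change minus the total RNA change in 1 fit), PDGFC had 0.61 ± 0.27 in the double modulation. By edgeR 0 of 8012 genes (0%) passed in that contrast, 332 had an unadjusted p under 0.05, and DESeq2 called 0.

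**Figure D1:**
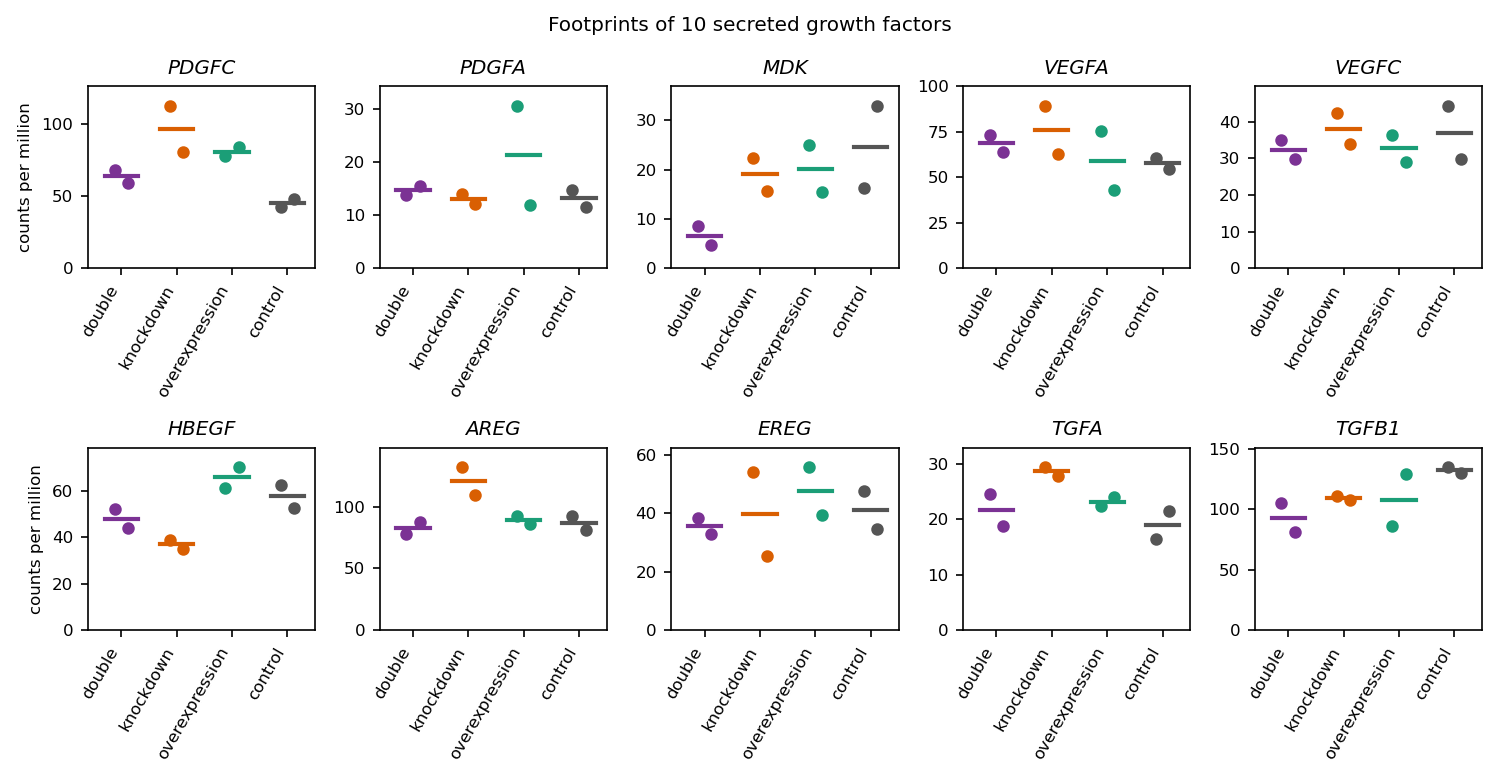
Footprints of each growth factor in CPM (y axis) in the 4 conditions (x axis), with a point per library and a bar at the mean of 2. PDGFC sits at 42.8 and 47.9 in control and at 59.4 or more in every other library, and MDK is lowest in the double modulation, at 8.52 and 4.69.

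MDK footprints were lowest in the double modulation. They were 8.52 and 4.69 CPM there, 22.4 and 15.7 CPM in the knockdown and 25.1 and 15.4 CPM in the overexpression, against 16.4 and 33.0 CPM in control. Both libraries of the double modulation lay below the other 6, and the remaining conditions overlapped. These levels rest on 8 and 3 counts in the double modulation, 19 and 13 in the knockdown, 9 and 9 in the overexpression and 10 and 20 in control. The exact Poisson 95% intervals, which cover counting error only, were 3.68 to 16.8 CPM and 0.968 to 13.7 CPM in the double modulation, and the first reached past the 15.4 CPM of the lowest other library. The log2 fold change over control was -1.82 ± 0.50 in the double modulation, -0.38 ± 0.40 in the knockdown and -0.37 ± 0.46 in the overexpression (SE). Without control replicate 2 the first was -1.24 and no longer passed, and the last 2 turned to 0.20 and 0.22.

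MDK total RNA was too sparse to show whether it followed its footprints. It measured 4.59 and 1.26 CPM in the double modulation, 5.10 and 2.81 in the knockdown and 2.32 and 2.84 in the overexpression, against 3.58 and 1.99 in control, from 5 to 25 counts per library. The groups overlapped, and the double modulation differed from control by 0.14 ± 0.63 on the log2 scale (edgeR adjusted p = 0.973). Without double modulation replicate 1 that value was -1.06 (adjusted p = 0.547), so at this depth neither a fall nor a rise of MDK mRNA could be detected. The ratio of footprints to total RNA was 2.26 in the double modulation, 4.81 in the knockdown and 7.85 in the overexpression, against 8.87 in control.

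Apart from PDGFC and MDK, which were chosen for their footprints, no growth factor passed in the footprint fits. Of the 9 with enough counts to be tested, MDK passed as lower in the double modulation, where 1.93% of all genes passed, and PDGFC as higher in the knockdown, where 1.11% did. The choice used these same values, so nothing is read from the calls of MDK and PDGFC. By edgeR 0 of the 9 passed in the overexpression (0.0246% of all genes, 409 of them at an unadjusted p under 0.05, and 0 called by DESeq2). The same was seen for 0 of the 9 by guide, that is the mean of knockdown and double modulation against the mean of overexpression and control (2.68% of all genes, 1089 at an unadjusted p under 0.05, 69 by DESeq2). PDGFA had too few footprints to be tested, with 7 to 13 counts in every library. The median log2 fold change of the 9 was -0.19 in the double modulation, 0.03 in the knockdown and 0.02 in the overexpression, beside 0.01, 0.00 and 0.00 for all genes tested.

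**Figure D2:**
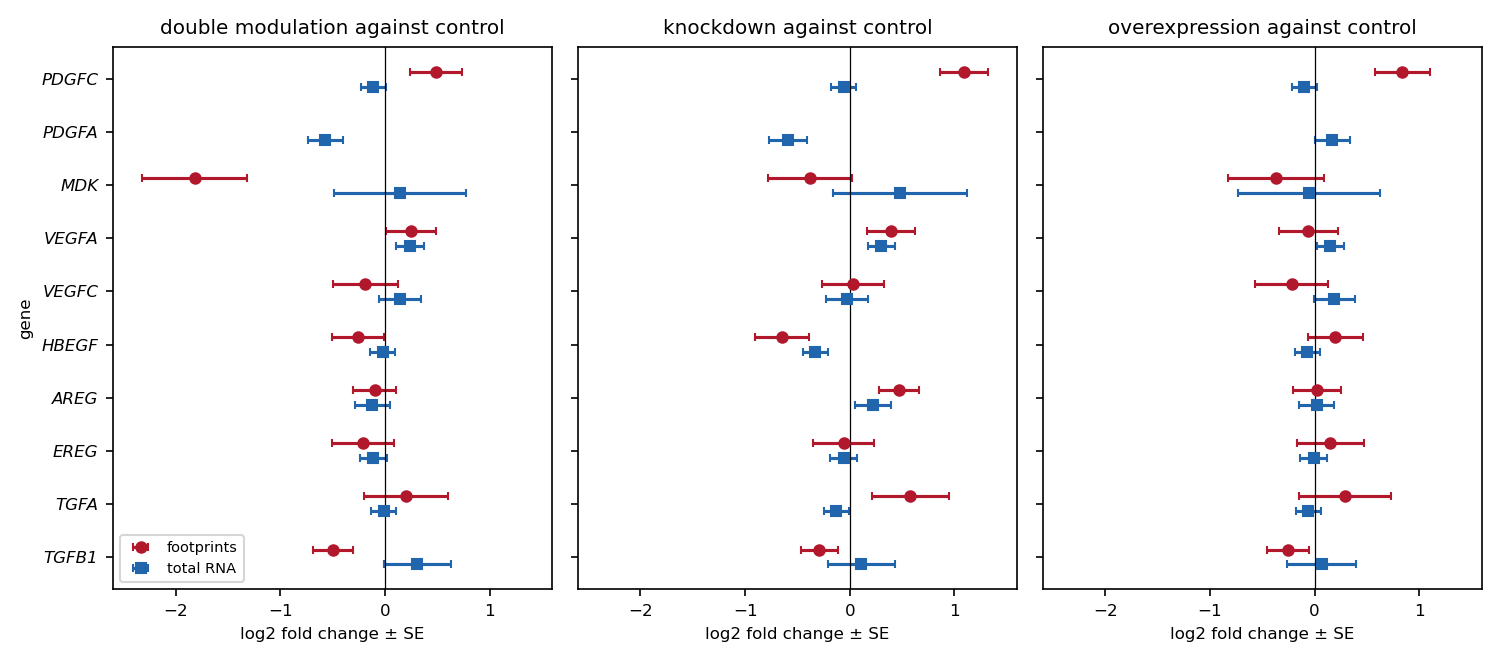
Log2 fold change against control (x axis, with standard error bars) of each growth factor (y axis) in footprints and total RNA, in a panel for each modified condition. PDGFC footprints lie at 0.49, 1.09 and 0.84 with total RNA between -0.11 and -0.06, MDK footprints reach -1.82 in the double modulation, and PDGFA has total RNA values only.

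PDGFA was the growth factor whose total RNA passed a test. With the tRNA-Ile-GAU guide it measured 24.2 and 21.4 CPM in the double modulation and 22.6 and 22.0 in the knockdown, against 37.1 and 38.0 in the overexpression and 37.8 and 29.9 in control with the eGFP guide. The 4 libraries of each guide did not overlap. The log2 fold change by guide was -0.66 ± 0.12 (SE, n = 4 per guide; fold 0.632, edgeR adjusted p = 0.0444), and 1.08% of 11720 genes passed in this contrast. PDGFA was also the 1 of the 10 factors whose total RNA libraries separated by guide, which 8.7% of all genes tested did. The change stayed between -0.74 and -0.58 in 12 alternatives, and the call was lost in 8 of them, with adjusted p = 0.0691 by DESeq2, 0.0718 with the replicate number as a block and 0.152 to 0.273 without any 1 library of control, overexpression or knockdown. It passed without either library of the double modulation, in fits where many more of all genes passed too. Those calls are therefore not firmer than that of the main fit.

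PDGFA lies on chromosome 7 (positions 497258 to 520700 of GRCh38.p14), and the total RNA of that chromosome as a whole was lower with the tRNA-Ile-GAU guide. Its 553 tested genes had a median log2 fold change of -0.37, with quartiles of -0.49 and -0.22, and the other chromosomes had a median of 0.03. PDGFA was lower than most of them, with 44 of the 553 genes (7.96%) below it. With the overexpression alone PDGFA differed by 0.17 ± 0.17 (adjusted p = 0.999) and the median of the chromosome by -0.02. PDGFA footprints were 13.8 and 15.6 CPM in the double modulation, 14.1 and 12.1 in the knockdown and 30.7 and 12 in the overexpression, against 14.8 and 11.6 in control. Those values overlapped, and 7 to 13 counts per library could not show a change of the size seen in total RNA.

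**Figure D3:**
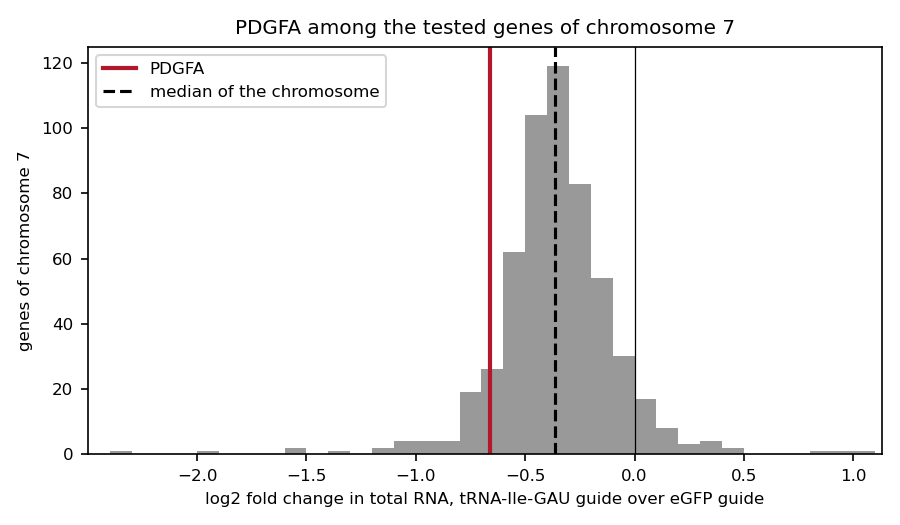
Number of chromosome 7 genes (y axis) by log2 fold change in total RNA with the tRNA-Ile-GAU guide over the eGFP guide (x axis, bins of 0.1), 553 genes. The dashed line is their median of -0.37 and the red line is PDGFA at -0.66, with 44 genes below it.

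The start of PDGFA is shown because its total RNA passed, and that of TGFB1 because its total RNA split between replicates, as described further on. Sequences are from RefSeq on GRCh38.p14, each from 250 bases before to 50 after an annotated start, and 7 of the 10 factors had an entry. PDGFA has 4 annotated starts, and the window with the highest GC content, 81.7%, is printed (chr7:519797-520096, minus strand). The TGFB1 window is chr19:41353873-41354172, minus strand, at 77.3% GC. Capitals mark GGGCGG or its reverse complement CCGCCC, the core of the GC box. 
PDGFA: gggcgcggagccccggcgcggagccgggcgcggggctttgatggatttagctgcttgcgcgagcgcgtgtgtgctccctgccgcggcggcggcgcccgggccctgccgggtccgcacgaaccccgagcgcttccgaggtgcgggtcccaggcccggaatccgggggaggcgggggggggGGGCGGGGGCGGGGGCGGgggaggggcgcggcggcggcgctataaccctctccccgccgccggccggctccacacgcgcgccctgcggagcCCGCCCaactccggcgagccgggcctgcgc
TGFB1: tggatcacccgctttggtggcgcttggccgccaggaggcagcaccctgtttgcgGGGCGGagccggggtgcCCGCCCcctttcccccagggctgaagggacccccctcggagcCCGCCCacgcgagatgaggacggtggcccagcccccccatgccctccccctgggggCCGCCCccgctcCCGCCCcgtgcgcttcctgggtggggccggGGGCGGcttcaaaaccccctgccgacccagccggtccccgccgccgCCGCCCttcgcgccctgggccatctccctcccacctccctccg
The PDGFA window holds 4 matches, most of them in an unbroken run, and the TGFB1 window 7. At least 1 match on either strand was found in 45% of 35116 windows of the same length. The other 3 PDGFA windows had 4, 1 and 5 matches, the 2 TGFA windows 4 and 0, EREG 0, AREG 1, VEGFC 2 and HBEGF 5. The printed PDGFA window was picked for its GC content, which favours such a match, and a match describes letters in the window and not binding.

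Of the VEGF pair, VEGFA had total RNA values slightly above control in the modified conditions, and its footprints overlapped control. VEGFA total RNA was 180 and 159 CPM in the double modulation, 196 and 157 in the knockdown and 163 and 153 in the overexpression, against 135 and 152 in control. All 6 modified libraries thus lay above control, the closest at 153 against 152 CPM. With the library scaling used for the tests, these closest libraries were both at 153 CPM, so that order depends on the scaling. Its log2 fold change was 0.24 ± 0.13 in the double modulation (edgeR adjusted p = 0.756), 0.30 ± 0.13 in the knockdown (0.716) and 0.15 ± 0.13 in the overexpression (0.999), none of which passed. VEGFA footprints measured 73.5 and 64.1 CPM in the double modulation, 89.5 and 62.8 in the knockdown and 75.3 and 42.9 in the overexpression, against 60.9 and 54.5 in control. Their log2 fold changes were 0.25 ± 0.24, 0.39 ± 0.23 and -0.06 ± 0.28 in that order, and none passed. VEGFC footprints kept to 29.1 to 44.4 CPM and its total RNA to 19.7 to 26.5 CPM over the 8 libraries of each assay, with no condition apart from the others.

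Among the EGF receptor ligands, HBEGF had lower footprints with the tRNA-Ile-GAU guide. It measured 52.2 and 43.8 CPM in the double modulation and 38.9 and 35.0 in the knockdown, against 61.4 and 70.3 in the overexpression and 62.5 and 52.8 in control. The libraries of each guide did not overlap, by a margin of 52.2 against 52.8 CPM, a separation that 7.22% of all genes tested showed and that HBEGF alone of the 9 factors had. The log2 fold change by guide was -0.56 ± 0.18 and did not pass, nor did it in any of 14 alternatives, which gave -0.76 to -0.49. HBEGF total RNA was 74.7 and 70.4 CPM in the double modulation, 55.4 and 60.2 in the knockdown and 64.2 and 74.0 in the overexpression, against 73.2 and 73.5 in control. The knockdown lay below the other conditions, at -0.33 ± 0.12 against control on the log2 scale (edgeR adjusted p = 0.590).

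AREG, which encodes amphiregulin, stood highest in the knockdown in both assays. Its footprints were 77.7 and 87.6 CPM in the double modulation, 132 and 109 in the knockdown and 92.1 and 85.7 in the overexpression, against 92.1 and 80.9 in control. The knockdown lay above the other 3 conditions, which overlapped, at 0.47 ± 0.19 over control on the log2 scale, and this did not pass. The share of all genes with 1 condition so apart was not counted. AREG total RNA was also highest in the knockdown, with 36.7 and 47.4 CPM in the double modulation, 51.0 and 54.3 in the knockdown and 44.1 and 47.3 in the overexpression, against 49.0 and 42.5 in control (knockdown 0.22 ± 0.17, edgeR adjusted p = 0.952). EREG, which encodes epiregulin and lies next to AREG in a cluster on chromosome 4, did not share the pattern. Its footprints in the knockdown were 54.2 and 25.4 CPM, the second highest and the lowest of the 8 libraries, and its total RNA stayed within 40.4 to 47.0 CPM in all 8.

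TGFA, the gene of transforming growth factor alpha, had footprints of 24.5 and 18.8 CPM in the double modulation, 29.4 and 27.8 in the knockdown and 22.3 and 24.0 in the overexpression, against 16.4 and 21.5 in control. The knockdown was again the highest, from 8 to 25 counts per library over the conditions (log2 fold change 0.58 ± 0.37). TGFA total RNA differed by -0.13 ± 0.12 in the knockdown on the log2 scale (edgeR adjusted p = 0.968) and did not pass, within 68.8 to 83.2 CPM in all 8 libraries.

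TGFB1 footprints were lower in the modified conditions, by varying amounts. They were 105 and 81.3 CPM in the double modulation, 111 and 108 in the knockdown and 86.5 and 129 in the overexpression, against 135 and 130 in control, so both control libraries were the highest of 8. The log2 fold change over control was -0.50 ± 0.19 in the double modulation, -0.29 ± 0.18 in the knockdown and -0.25 ± 0.20 in the overexpression. None of these passed. Total RNA of TGFB1 was 48.8 and 21.4 CPM in the double modulation, the highest and the lowest of all 8 libraries, with 34.6 and 26.7 in the knockdown and 26.7 and 32.3 in the overexpression, against 28.3 and 28.6 in control. The fold change in the double modulation was 0.31 ± 0.32 on the log2 scale (edgeR adjusted p = 0.879). It was 0.73 without replicate 2 of that condition and -0.38 without replicate 1, so its direction in total RNA rests on which library is kept.

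**Figure D4:**
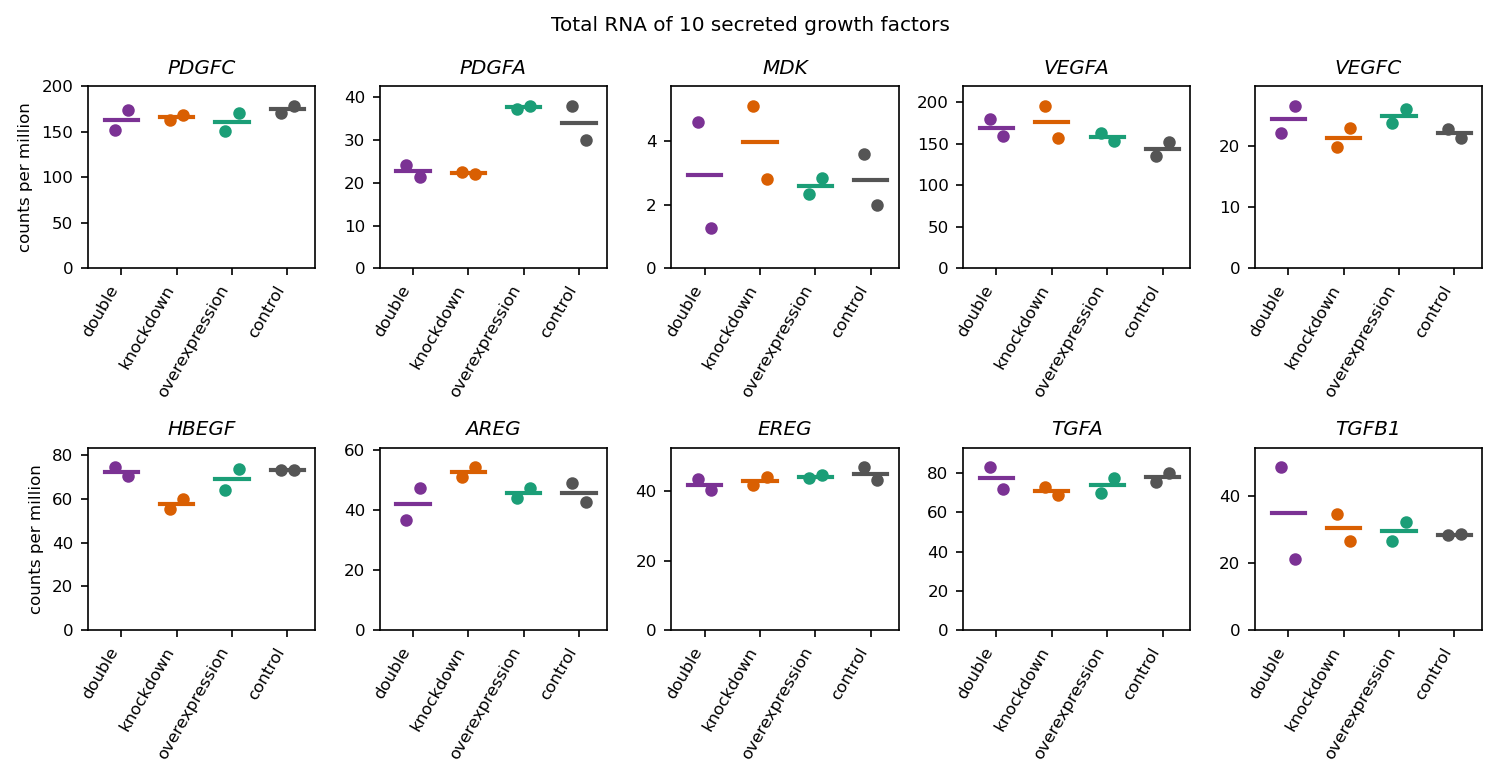
Total RNA of each growth factor in CPM (y axis) in the 4 conditions (x axis), with a point per library and a bar at the mean of 2. PDGFA is at 21.4 to 24.2 with the tRNA-Ile-GAU guide (double, knockdown) and 29.9 to 38.0 with the eGFP guide (overexpression, control), and the TGFB1 libraries of the double modulation lie at 48.8 and 21.4.

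In total RNA, 0 of the 10 factors passed in the contrasts against control by edgeR. The share of all genes that passed was 0.0683% in the double modulation, 0.0256% in the knockdown and 0% in the overexpression, with 893, 813 and 233 genes at an unadjusted p under 0.05 and 54, 41 and 1 called by DESeq2. The interaction passed for 0 factors and 0% of genes (312 at an unadjusted p under 0.05, 0 by DESeq2). The median of the 10 by guide was -0.04, beside 0.02 for all genes tested. In translational efficiency by guide 0 of 9 factors and 0% of genes passed (375 at an unadjusted p under 0.05, 0 by DESeq2). HBEGF had -0.41 ± 0.17 there, TGFB1 -0.42 ± 0.29, PDGFC 0.41 ± 0.18 and MDK -1.27 ± 0.60. Without replicate 2 of the double modulation in total RNA, TGFB1 was at -0.62, in a fit where many more of all genes passed.

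A list of 25 growth factor receptor genes held receptors and co-receptors of these factors, and also MET, AXL and the FGF receptors, which bind other ligands. By guide, 13 were tested in footprints, where LRP1 rose and MET fell (2.68% of all genes passed), and 16 in total RNA, where MET fell (1.08% of all genes passed). With so few genes a list, these counts and those of the lists that follow are not set apart from the share over all genes. LRP1, a large endocytic receptor to which midkine binds, had footprints of 231 to 312 CPM with the tRNA-Ile-GAU guide and 170 to 206 with the eGFP guide (log2 0.50 ± 0.11, edgeR adjusted p = 0.00103). Its total RNA differed by 0.61 ± 0.14 (adjusted p = 0.0789). MET, the receptor of hepatocyte growth factor on chromosome 7, fell by 0.44 ± 0.09 in footprints (adjusted p = 0.000908) and by 0.59 ± 0.08 in total RNA (0.0139) on the log2 scale. In footprints by guide, the 371 tested genes of that chromosome had a median of -0.39, with quartiles of -0.57 and -0.24. EGFR, the receptor of HBEGF, AREG, EREG and TGFA and also on chromosome 7, differed by -0.05 ± 0.08 in footprints (adjusted p = 0.849) and by 0.04 ± 0.07 in total RNA (0.871). PDGFRA, the main receptor of PDGF-A and PDGF-C, had at most 0.702 CPM of total RNA in any library.

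Of 15 genes for cleavage and release of precursors, 9 were tested in footprints and 12 in total RNA, and PLAT rose in both. PLAT encodes tissue plasminogen activator, a protease that cleaves PDGF-C into its active form. Its footprints were 374 to 638 CPM with the tRNA-Ile-GAU guide and 326 to 360 with the eGFP guide (log2 0.44 ± 0.09, edgeR adjusted p = 0.000545), and its total RNA 88.3 to 158 and 70.9 to 76.5 CPM (0.62 ± 0.11, adjusted p = 0.0419). ADAM17, the main sheddase of the EGF receptor ligands, differed by 0.07 ± 0.19 in footprints (adjusted p = 0.920) and by -0.21 ± 0.09 in total RNA (0.417). Of 10 genes for latency and storage of TGF-beta, 7 were tested in footprints and 8 in total RNA, and 0 passed in either by edgeR, which at shares of 2.68% and 1.08% over all genes says nothing of the list.

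Of 36 other secreted growth factors, 10 were tested in footprints and 23 in total RNA. BMP4, a bone morphogenetic protein, fell in footprints to 136 to 193 CPM with the tRNA-Ile-GAU guide, against 171 to 260 with the eGFP guide (log2 -0.48 ± 0.11, edgeR adjusted p = 0.00276). INHBB, which encodes the activin beta B subunit, fell in total RNA to 2.02 to 4.68 CPM, against 11.1 to 25.1 with the eGFP guide (-2.09 ± 0.29, adjusted p = 0.0159). Of 20 feedback and response genes of these receptors, 17 were tested in footprints and 20 in total RNA, where ERRFI1 rose. ERRFI1, a feedback inhibitor of the EGF receptor, differed by 0.39 ± 0.07 in total RNA (edgeR adjusted p = 0.0471) and by 0.34 ± 0.11 in footprints (0.0861). By guide, the medians of the 5 lists were -0.22 to 0.06 for footprints and -0.10 to 0.04 for total RNA, beside 0.01 and 0.02 for all genes tested. The total RNA calls of MET, PLAT, INHBB and ERRFI1 were each lost without any 1 library of control, overexpression or knockdown (highest adjusted p = 0.135, 0.245, 0.140 and 0.283), and BMP4 lost its footprint call without control replicate 2, by DESeq2 and with the footprint libraries thinned to equal depth (adjusted p up to 0.174 over its alternatives). Thinning also ended the footprint calls of LRP1 and MET (adjusted p = 0.0580 and 0.113). In total RNA, INHBB also lost its call by DESeq2 and ERRFI1 with the replicate number as a block. ERRFI1 and PLAT lost theirs without chromosome 7 genes.

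The genes whose footprints followed PDGFC most closely over the 8 libraries (Pearson's r of log2 CPM, a description with the libraries and their depth in common) were KLHL11 (0.962), GOLGA4 (0.938), PIP5K1C (0.924), C22orf29 (0.922) and SMDT1 (0.919). KLHL11 averaged 48.7 CPM in the double modulation, 67.3 in the knockdown, 55.0 in the overexpression and 37.1 in control, the same order as PDGFC but for a smaller spread. Those nearest to MDK were IGFBP4 (0.962), HIP1R (0.944), ZC3HAV1L (0.940), NR2F1 (0.938) and SPINT2 (0.935). SPINT2 averaged 395 CPM in the double modulation, 479 in the knockdown, 507 in the overexpression and 537 in control. Among the growth factors, TGFA was the one nearest to PDGFC (0.865). PDGFC against MDK gave 0.0837, which over 8 libraries and with few MDK counts cannot show whether they are related.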

How the data were processed

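Footprints and total RNA of 8 libraries each were used, 2 per condition, grouped by their titles. Values are raw counts per gene symbol as deposited by the authors. Per the submitters' processing notes, cutadapt 1.17, STAR 2.5.2a and HTSeq were used with build hg38; the order, settings and annotation are not given in the sources used here. Reads that align to several places, 97.0 to 98.8% of the alignments in footprint files and 97.2 to 98.1% in total RNA files, were not counted. A gene missing from a footprint file was given a count of 0. The summary lines of HTSeq were left out; reads on no gene were 24.8 to 32.6% of uniquely placed reads in footprints and 62.2 to 65.0% in total RNA.

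CPM used the counts on genes. After filterByExpr (at least 10 counts in enough libraries and 15 in total), libraries were scaled by TMM and tested with edgeR 4.0.16 (R 4.3.3) on the 4 group means of an assay, 8 libraries and 4 residual degrees of freedom; translational efficiency used all 16 libraries. Adjusted p-values are Benjamini-Hochberg over all genes tested, with a threshold of 0.05. Errors beside log2 fold changes (SE) are approximate, the size of the change divided by the square root of the test's F statistic. They are least reliable for changes near 0. In simulated counts for the double modulation, 26 of 99 changes of 1.5-fold and 51 of 98 of 2-fold were called in footprints (7935 genes), and 7 of 98 and 49 of 99 in total RNA (11551 genes). All 10 factors are named, with the genes of the 5 lists that passed by guide and the 5 genes nearest to PDGFC and to MDK. Results of 1 gene of the feedback and response list are not reported here. EGFR, PDGFRA and ADAM17 were named after their values were seen. The factors, lists and tests were chosen with earlier results of these data known. Positions are of GRCh38.p14, where 23758 symbols are current names and 1562 older ones. Isoleucine codons were not analysed here. Alternatives were DESeq2 1.42.0, its size factors, no filter, a block for the replicate number, leaving out each library, the compared groups alone, thinned footprints and leaving out chromosome 7; applying them to genes of the lists was chosen after seeing the data.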

Additional observations from a re-analysis of the deposited data

Results flagged for a closer look

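PDGFC in footprints is the result that met a rule for a closer look, because the effect of the tRNA-Ile-UAU construct differed between the guides. With the tRNA-Ile-GAU guide the construct went with lower PDGFC footprints (68.2 and 59.4 CPM with it, 113 and 81.0 without), and with the eGFP guide with higher ones (78.1 and 84.0 CPM with it, 42.8 and 47.9 without). The interaction was -1.44 on the log2 scale. PDGFC was chosen for its footprints in these libraries, so this is a description. The interaction in PDGFC total RNA was 0.06 ± 0.17 (edgeR adjusted p = 0.998).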

How the results depend on the processing

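Of the log2 fold changes of the 10 factors, 39 of 652 alternative values in footprints, 40 of 674 in total RNA and 16 of 403 in translational efficiency changed sign, and 0 of these changed the sign of a value that passed. The count of factors that passed depended on the setting. PDGFC and MDK were chosen for their footprints in these libraries, so a footprint call kept or lost is a description only. In footprints the count was 1 in the double modulation (MDK), in the knockdown (PDGFC) and in the interaction (PDGFC). It was 0 in each of these by DESeq2 (the 9 factors had no adjusted p there in the first pair of contrasts), 0 with footprints thinned to equal depth, and 0 for the interaction with no filter on low counts; without single libraries it ran from 0 to 1. The PDGFC interaction passed without knockdown replicate 2 or double modulation replicate 1 and not without the other 6 libraries. The PDGFC knockdown value lost its call without either control library or knockdown replicate 1 (0.82), and MDK without either library of the double modulation (-2.35 and -1.54). In total RNA by guide the count of 1 (PDGFA) was 0 by DESeq2 and with the replicate block, 0 without chromosome 7 genes, which removes PDGFA itself, and 0 to 2 without single libraries. In the double modulation it ran from 0 to 1 in total RNA and from 0 to 2 in translational efficiency, and by guide in translational efficiency from 0 to 1. The values of 2, 1, 2 and 1 came without replicate 2 of the double modulation in total RNA, where 1820 genes passed by guide in place of 126 (545 without replicate 1, 6 to 9 without any other library). Replicate numbers are not described as pairing libraries, and deviations of same-numbered libraries correlated at -0.0383 to 0.0637 in footprints and -0.422 to 0.356 in total RNA; the replicate block left 53 genes by guide in total RNA. All genes that passed numbered 157, 90 and 218 in footprints (double modulation, knockdown, guide), against 48, 25 and 69 by DESeq2, and 8, 3 and 126 in total RNA, against 54, 41 and 164; without chromosome 7, 14 passed by guide in total RNA. TMM scaling changed mean CPM by factors of 0.982 to 1.03. Depth limits MDK in both assays and PDGFA in footprints most.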
